A study of Mus musculus with 2 samples.

Results

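The T cells described here are the CD8-negative ones in mouse tumours, 70 cell barcodes of 12864 that passed the filters. They were chosen by their own RNA: at least 200 genes, at most 10% mitochondrial UMIs, fewer than 5 UMIs of the mCherry construct, at least 2 UMIs over the CD3 genes Cd3d, Cd3e and Cd3g, and no UMI of Cd8a, Cd8b1, Trdc or Il17a. A UMI, or unique molecular identifier, marks a single captured RNA molecule, and a barcode marks the droplet that held a cell. The adult library gave 50 members of 5774 filtered barcodes, and the young library gave 20 of 7090. CD3, CD8, Trdc, Il17a and mCherry levels set the membership and are given as description.

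The adult library came from mice aged 24 weeks and the young library from mice aged 4 weeks. Both carry the label d7, and in both the tumours were pooled before mCherry-bearing cells were sorted. Strain, genotype, sex, tumour type, the number of mice and the cells made to carry mCherry were not stated in the sources used. Chemistry was 10x 3' v2 for the single library of each age, so an effect of age cannot be told apart from one of the pool, the sorting, the library or the run. No difference below has a replicate check and no p-value is given. Intervals are 95% intervals that cover counting error only, since cells of 1 library are not replicates.

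T cells that lack CD8 and carry the alpha beta receptor are for the most part CD4 cells, which read peptides on MHC class II and act through cytokines and CD40 ligand. The transcription factor Foxp3 defines regulatory T cells, which restrain other T cells through CTLA-4, high-affinity interleukin 2 receptor and interleukin 10. Regulatory T cells that enter tumours are known for high levels of costimulatory receptors of the TNF receptor family, among them OX40 (Tnfrsf4), GITR (Tnfrsf18) and 4-1BB (Tnfrsf9).

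The libraries held 70988070 UMIs in 6279 adult barcodes and 84862471 UMIs in 7558 young barcodes. The members had medians of 5146 UMIs in the adult library and 4931 in the young one. The CD8-positive T cells used for comparison, 29 adult and 36 young barcodes with a Cd8a or Cd8b1 UMI, had medians of 5526 and 13239 UMIs. Of the filtered barcodes, 4600 adult and 6161 young ones had more than 0.5% of their UMIs from 12 monocyte/macrophage marker genes, so the T cells sat among many myeloid cells. The libraries shared 111 barcode sequences. No adult member and 1 young member was among them, and its twin in the adult library was not a member.

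Receptor RNA of alpha beta T cells was found in most members, while Cd4 and Foxp3 were both missing in 17 adult and 8 young ones. A constant-region UMI of the alpha beta receptor (Trac, Trbc1 or Trbc2) was found in 48 of 50 adult and 17 of 20 young members. Cd4 was found in 28 adult and 9 young members, against 1 of 29 adult and 1 of 36 young CD8-positive T cells. It was almost absent from myeloid barcodes, here those without a CD3 UMI and with at least 2 UMIs of Csf1r, where 6 of 3581 adult and 3 of 4431 young barcodes had it at medians of 10858 and 11034 UMIs. Natural killer cell genes gave 18 UMIs in 4 adult members and 2 UMIs in 1 young member. Dendritic cell, mast cell and red cell markers were at 0 in every member. Of the gamma delta constant regions, Tcrg-C1 and Tcrg-C2 were at 0, and Tcrg-C4 had a UMI in 2 adult members.

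Some members lay at the edge of the rule. Exactly 2 CD3 UMIs were counted in 6 adult and 3 young members, and 84 adult and 61 young barcodes with 1 CD3 UMI fell just outside. The median was 11 CD3 UMIs in adult and 9 in young members, with maxima of 55 and 34. A single mCherry UMI was seen in 7 adult and 3 young members. No barcode that otherwise met the member rule reached 5 in either library. Myeloid RNA was the larger doubt. It exceeded 0.5% of UMIs in 7 adult members, which held 33.8% of that library's member UMIs, and in 6 young members, which held 62.7%. None of the 23 Foxp3-positive members was among these 13. The 5 members with no alpha beta receptor UMI, 2 adult and 3 young, all had exactly 2 CD3 UMIs, and 2 adult and 2 young of them were over the limit, so these go against the T cell label. Counts and genes are therefore given with and without the members over that limit.

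**Figure D1:**
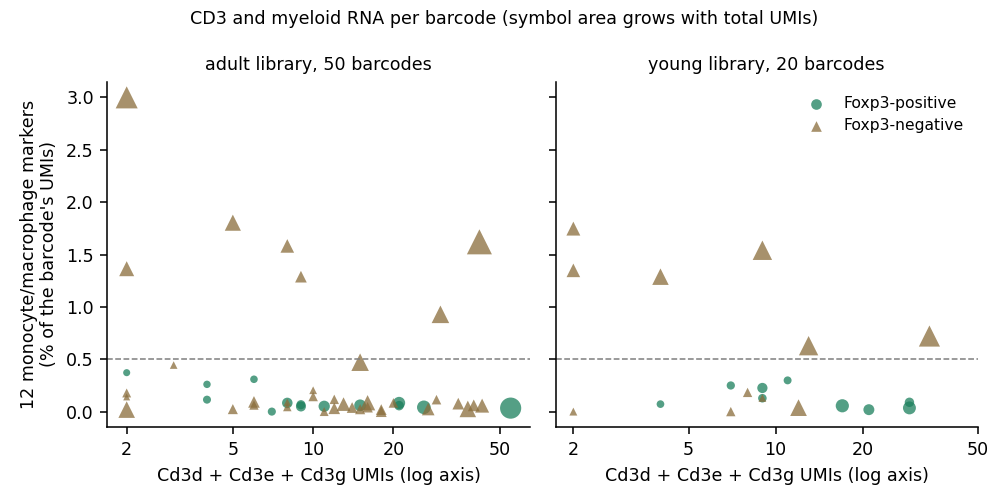
Each symbol is a CD8-negative T cell barcode of the adult (left) or young (right) library, with its summed CD3 UMIs on a log axis against the percent of its UMIs from 12 monocyte/macrophage markers; symbol area grows with total UMIs. All Foxp3-positive barcodes lie below the dashed 0.5% line, and 7 adult and 6 young Foxp3-negative barcodes lie above it.

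CD8-negative T cells took a larger share of the adult library. They were 0.866% (exact binomial interval 0.643 to 1.14) of filtered adult barcodes and 0.282% (0.172 to 0.435) of filtered young barcodes, a ratio of 3.07 (1.83 to 5.15). CD8-positive T cells took 0.502% and 0.508%, a ratio of 0.989 (0.607 to 1.61). The Foxp3-negative members carried most of the difference, with 36 adult barcodes (0.623%) and 11 young barcodes (0.155%), a ratio of 4.02 (2.05 to 7.89). Without those over the myeloid limit they were 29 adult (0.502%) and 5 young barcodes (0.0705%), a ratio of 7.12 (2.76 to 18.4), and CD8-positive T cells then gave 1.28 (0.738 to 2.21). The Foxp3-positive members were 14 adult (0.242%) and 9 young barcodes (0.127%), and the interval of their ratio, 1.91 (0.827 to 4.41), includes 1. The larger adult share was not particular to the members. CD8-negative barcodes left out for a Trdc or Il17a UMI were 42 in the adult (0.727%) and 7 in the young library (0.0987%), a ratio of 7.37 (3.31 to 16.4). A cell of that kind whose Trdc RNA was not captured cannot be told apart from a member. The same holds for a CD8-positive cell whose Cd8a and Cd8b1 RNA was not captured. Exactly 1 Cd8 UMI was counted in 4 of 29 adult and 1 of 36 young CD8-positive T cells, which had medians of 5526 and 13239 UMIs. The part of such cells in the shares was not tested, and the sort for mCherry can set all of these shares.

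**Figure D2:**
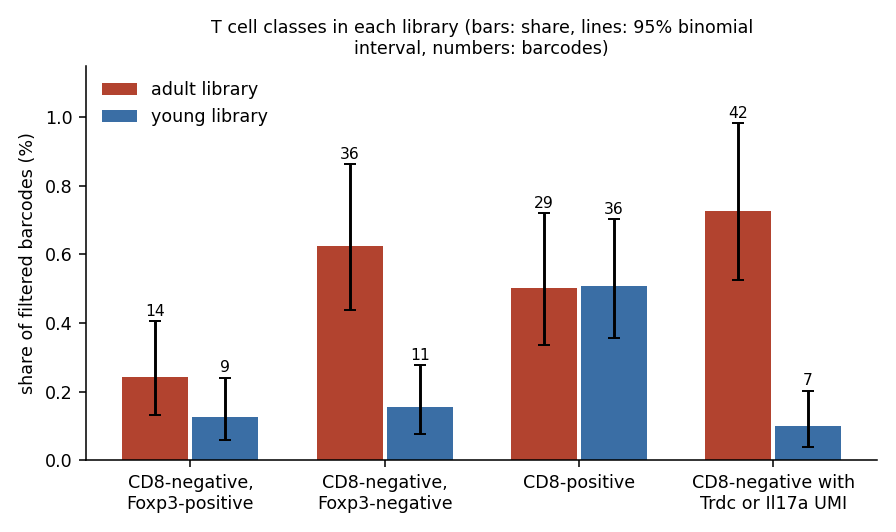
Bars show each T cell class as a percent of filtered barcodes in the adult and young library, with exact binomial 95% intervals as lines and barcode counts above. The adult and young intervals are apart for Foxp3-negative CD8-negative cells and for CD8-negative cells with a Trdc or Il17a UMI. They overlap for Foxp3-positive and CD8-positive cells.

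Of all T cell barcodes, the members were 50 of 121 in the adult library (41.3%, 32.4 to 50.6) and 20 of 63 in the young one (31.7%, 20.6 to 44.7). Foxp3 was found in 28.0% of adult members (16.2 to 42.5) and 45.0% of young members (23.1 to 68.5), intervals that overlap widely. Thinning to 2000 UMIs left out 9 adult and 4 young members with fewer UMIs. These were 5 of 14 adult and 2 of 9 young Foxp3-positive members, and 4 of 36 and 2 of 11 Foxp3-negative ones. Among the thinned members the shares were 6 of 41 adult (14.6%) and 7 of 16 young ones (43.75%). These shares mix the loss of barcodes with few UMIs and the loss of Foxp3 UMIs. The part of each was not tested. Without the members over the myeloid limit they were 32.6% and 64.3%. The Foxp3 share lay above that of other cells: a Foxp3 UMI was found in 0.168% of adult and 0.203% of young myeloid barcodes, in 2 of 29 adult and 1 of 36 young CD8-positive T cells, and in none of the 49 T cells with a Trdc or Il17a UMI.

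Foxp3 itself (chromosome X, 7573644 to 7595245, plus strand, mm10) was sparse in the cells that had it. The median was 2 UMIs in both libraries, the highest 8 in the adult and 5 in the young one, and 4 adult and 2 young barcodes counted as positive on a single UMI. A cell whose Foxp3 RNA was not captured cannot be told apart from a Foxp3-negative one. UMIs of at least 2 of Ctla4, Il2ra and Ikzf2 were present in 13 of 14 adult and 8 of 9 young Foxp3-positive members, and also in 11 of 36 adult and 4 of 11 young Foxp3-negative ones. A Cd4 UMI stood beside Foxp3 in 9 adult and 6 young members. Among Foxp3-negative members, 19 adult and 3 young ones had Cd4, and 17 adult and 8 young ones had neither gene.

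Foxp3-positive members carried the regulatory T cell programme at several times the level of Foxp3-negative ones. Values are CPM, a gene's share of the summed UMIs scaled to 1000000. A gene is called higher or lower when the sums differ at least 2-fold with an interval that excludes 1, at 50 CPM or more in a group, with UMIs in at least 5 barcodes of the higher group and at most 25% of them in 1 barcode. With both libraries summed (23 against 47 barcodes), 232 of 3256 measured genes were higher (7.13%) and 212 lower (6.51%), and the median log2 ratio over all of them was 0.22. Of 24 measured genes of the regulatory list other than Foxp3, 11 were higher and none lower, with a median log2 ratio of 2.23. Without the members over the myeloid limit, 176 genes were higher and 100 lower, and 11 of 24 genes of the list were higher, with Capg among them and Batf not. The number of all genes measured without these members is not given here.

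Ctla4, the inhibitory receptor that competes with CD28 for its ligands, reached 2345 CPM in Foxp3-positive members and 151 CPM in Foxp3-negative ones, 15.6-fold (11.9 to 20.7). It was found in 12 of 14 and 8 of 9 Foxp3-positive barcodes of the adult and young library, and in 17 of 36 and 3 of 11 Foxp3-negative ones. Across single Foxp3-positive barcodes its level ran from 0 to 80.7 UMIs per 10000 in the adult library (median 18.9) and from 0 to 94.8 in the young one (median 32.2). Foxp3-negative barcodes had a median of 0 in both, with maxima of 35.7 and 3.33, so the groups overlapped in both libraries.

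Il2ra, the alpha chain of the interleukin 2 receptor, was 9.40-fold higher (1330 against 141 CPM), and Ikzf2, which encodes Helios, was 7.17-fold higher (998 against 139 CPM). The 3 TNF receptor family genes were each higher: Tnfrsf9 stood at 3505 and 657 CPM, Tnfrsf4 at 3615 and 790 CPM, and Tnfrsf18 at 2371 and 481 CPM. Tnfrsf4 and Tnfrsf18 lie close together on chromosome 4 (156013843 to 156016612 and 156026164 to 156028895, both plus strand). Tnfrsf4 and Tnfrsf18 were found in all 23 Foxp3-positive barcodes, while a Tnfrsf4 UMI was present in 1.06% of adult and 0.677% of young myeloid barcodes. Icos, a costimulatory receptor of the CD28 family, stood at 1074 and 230 CPM. Itgae (the CD103 integrin chain), Tnfrsf1b, Socs2 and the transcription factor Batf completed the 11.

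**Figure D3:**
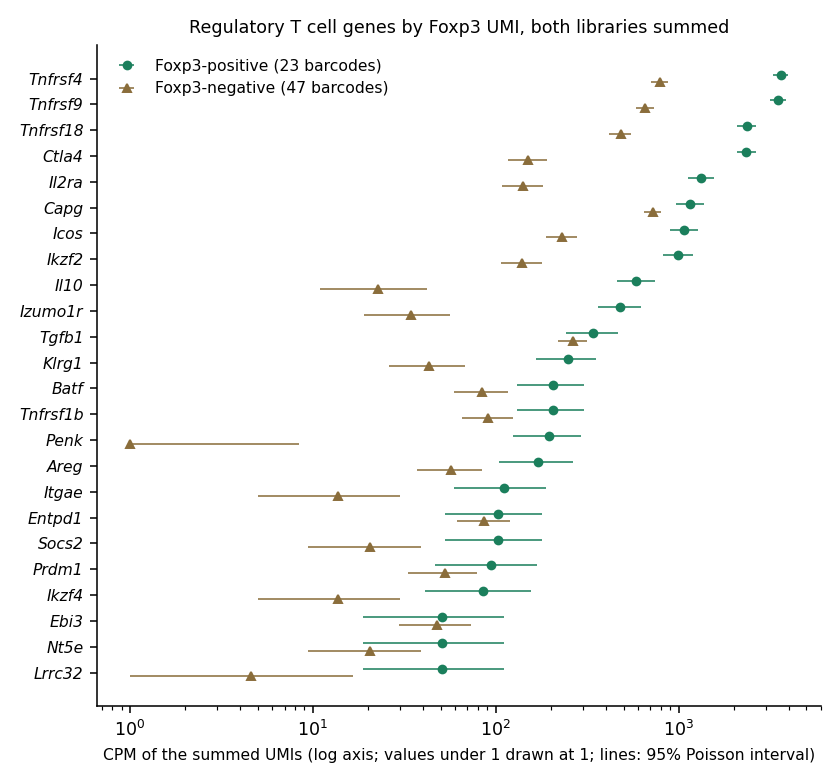
Points show CPM of the summed UMIs on a log axis for measured regulatory T cell genes in Foxp3-positive and Foxp3-negative CD8-negative T cells, both libraries together, with exact Poisson 95% intervals. Every gene is higher on the plot in the Foxp3-positive sum, and 11 of the 24 passed the 2-fold call, Ctla4, Il2ra, Ikzf2 and the 3 TNF receptor genes among them.

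Both libraries gave the same direction on their own. In the adult library Ctla4 was at 2049 CPM in Foxp3-positive and 177 CPM in Foxp3-negative members, Il2ra at 1379 and 81.9 CPM, and Ikzf2 at 860 and 91.7 CPM. In the young library Ctla4 was at 2958 and 90.3 CPM, Il2ra at 1230 and 278 CPM, and Ikzf2 at 1283 and 248 CPM. With 14 and 9 Foxp3-positive barcodes, a single barcode could hold over 25% of a gene's UMIs. For that reason only Ikzf2 in the young library met the call rule among these values. In the adult library 1 barcode held 27088 of the 79071 Foxp3-positive UMIs. It had 50 of the 162 Ctla4 UMIs, 38 Il2ra UMIs and 22 Ikzf2 UMIs. In the young library 1 barcode had 32 Ctla4 and 12 Il2ra UMIs.

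Granzyme B, a protease of cytotoxic granules, was abundant in the Foxp3-positive members. Gzmb UMIs were found in 13 of 14 adult and 9 of 9 young Foxp3-positive barcodes, against 15 of 36 and 6 of 11 Foxp3-negative ones. The sums were 8410 CPM in adult Foxp3-positive and 671 CPM in adult Foxp3-negative members, and 6335 and 451 CPM in the young library. The ratio over both libraries was 12.8 (11.1 to 14.7), but 1 barcode held 346 of the 907 Foxp3-positive UMIs, so the call rule was not met. Single Foxp3-positive barcodes had medians of 66.3 UMIs per 10000 in the adult library and 56.3 in the young one, and only 1 of the 23 lacked the gene. CD8-positive T cells had 3848 CPM in the adult and 2209 CPM in the young library, below the Foxp3-positive sums. A Gzmb UMI was present in 1.65% of adult and 1.11% of young myeloid barcodes.

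No measured cytotoxic gene was called higher in Foxp3-positive members. Klrk1 and Klrd1, receptors of natural killer and cytotoxic cells, had 0 UMIs in the Foxp3-positive members against 62 and 47 UMIs in the Foxp3-negative ones. Set against a floor of 3 UMIs over the group, Klrk1 was at least 5.53-fold lower and Klrd1 at least 4.19-fold lower. Myeloid barcodes also carry Klrk1 (34.7% of adult, 58.2% of young), and without the members over the myeloid limit the bounds were 8.94-fold and 8.36-fold. Ctsw, a protease of cytotoxic lymphocytes, was lower too (59.7 against 139 CPM). Nkg7, a granule protein, was found in 2 of 14 adult and 4 of 9 young Foxp3-positive barcodes, against 29 of 36 and 8 of 11 Foxp3-negative ones. Its summed level was 452 and 575 CPM, a ratio of 0.786 (0.573 to 1.06), with 23 of the 53 Foxp3-positive UMIs in 1 barcode. Of 10 measured cytotoxic genes, 3 were lower and none higher.

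Interleukin 10, a suppressive cytokine, had UMIs in 8 of 14 adult and 5 of 9 young Foxp3-positive members and in 3 of 47 Foxp3-negative ones. The sums were 588 and 22.8 CPM, not called because 18 of 69 UMIs came from 1 barcode. Myeloid barcodes had Il10 in 7.26% (adult) and 8.28% (young). Ifng, the type 1 helper cytokine, showed the other distribution: 1 of 23 Foxp3-positive barcodes had it, against 16 of 47 Foxp3-negative ones, all 16 in the adult library. Chemokine receptor Cxcr3 was higher in Foxp3-positive members (188 against 25.1 CPM), as were Cd27 (290 against 41.1 CPM) and the transcription factor Maf (554 against 139 CPM). Costimulatory receptors as a list had 6 of 7 measured genes higher.

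The following counts stand beside 7.13% of all genes higher and 6.51% lower. Of 14 measured MHC class I genes 3 were higher, of 21 type I interferon response genes 3 (Isg20, Stat2 and Ifi27l2a), and of 19 interferon gamma response genes 4 were higher (Irf1, Socs1, Tapbp and Tap1) and 2 lower (Gbp2 and Irf8). Of 18 transcription factors 6 were higher, namely Ikzf2, Foxo1, Maf, Rora, Ikzf3 and Batf. Without the members over the myeloid limit, 5 of 14 MHC class I, 4 of 18 type I interferon, 4 of 19 interferon gamma and 4 of 18 transcription factor genes were higher, and 1 interferon gamma gene (Irf8) was lower. The 7.13% and 6.51% are for all members, so these last counts have no share over all genes beside them. Scaling by the median of gene ratios in place of total UMIs shifted all log2 ratios of this comparison by -0.12.

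Among the 10 largest differences in each direction, Foxp3-positive members were also higher for Atg16l2, Rapsn, Pglyrp2, Fut7, Panx1, Ormdl3 and Trp53i11, each with 8 to 25 UMIs in the Foxp3-positive sum, and all 10 kept their call without the members over the myeloid limit. Fut7 makes selectin ligands, and Panx1 forms membrane channels. On the lower side stood Ms4a7, Unc93b1, Atf3, Scimp, Pid1, Naaa, C1qb and Lair1 besides Klrk1 and Klrd1. Only Klrk1 and Klrd1 kept their call without the members over the limit. Of 11 measured monocyte/macrophage markers, 8 were lower in Foxp3-positive members, and 0 of 7 were without the members over the limit. The limit is set by these same markers and only Foxp3-negative members were over it. The second count therefore follows from the cut and is no separate result. The summed level of these markers ran from 0 to 3717 CPM in adult and from 184 to 2982 CPM in young Foxp3-positive barcodes, against 0 to 30003 and 0 to 17473 CPM in Foxp3-negative ones.

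**Figure D4:**
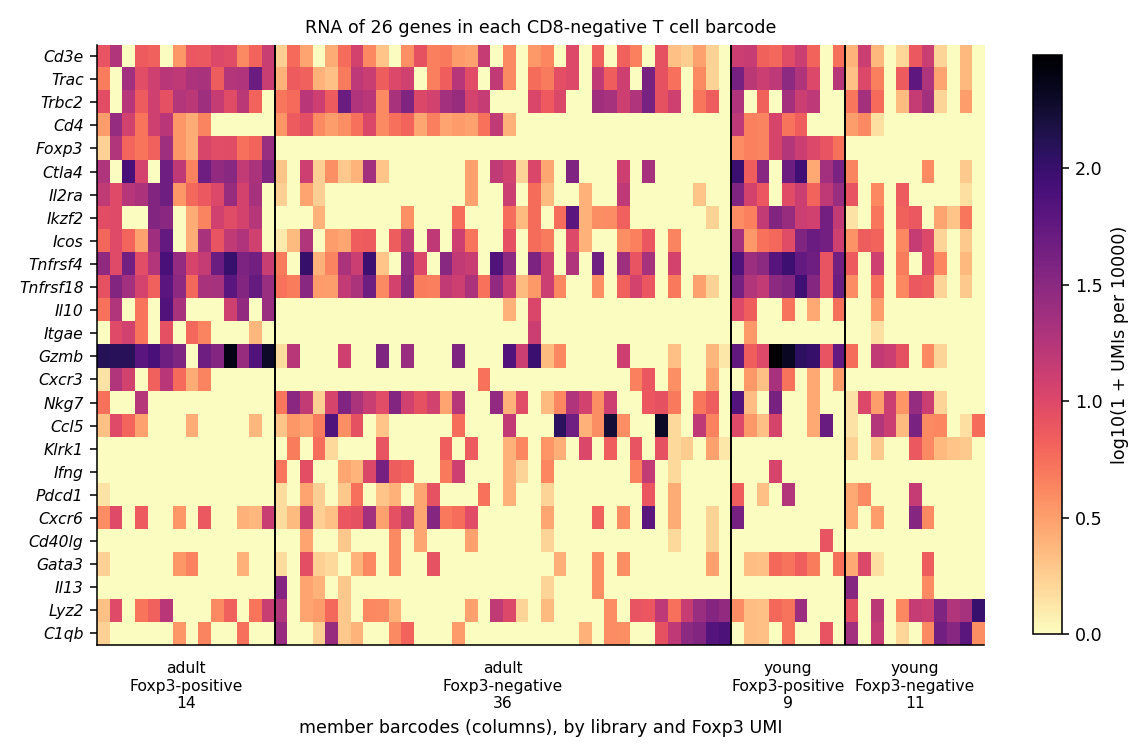
Each column is a CD8-negative T cell barcode, grouped as adult Foxp3-positive (14), adult Foxp3-negative (36), young Foxp3-positive (9) and young Foxp3-negative (11), and the colour gives log10(1 + UMIs per 10000) for 26 genes. Ctla4, Il2ra, Tnfrsf4, Tnfrsf18 and Gzmb fill the Foxp3-positive columns, and Nkg7 and Cxcr6 fill more of the adult Foxp3-negative ones. Within a block, columns run from high to low Cd4 and then from low to high myeloid RNA. C1qb is high in most columns near the right end of each Foxp3-negative block and in some Cd4-positive columns at its left.

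The Foxp3-negative members were mixed. In the adult library the 19 with Cd4 had Nkg7 in 17, Cxcr6 (a receptor of tissue-homing T cells) in 16, Pdcd1 (PD-1) in 11 and Ifng in 11. The 17 without Cd4 had Nkg7 in 12, Klrk1 in 11, Cxcr6 in 6 and Ifng in 5. The 3 young members with Cd4 and no Foxp3 had Nkg7 in 3, Cxcr6 in 2 and Ifng in 0, and 2 of these 3 were over the myeloid limit. Cd40lg, the helper signal to B cells and dendritic cells, was found in 8 adult and 0 young Foxp3-negative members. Zbtb16, the factor of natural killer T cells, was at 0 in every member.

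Il13, a type 2 cytokine, was concentrated in 1 barcode of each library. It was found in 6 adult and 2 young members, all Foxp3-negative, but 130 of 136 adult UMIs and 88 of 89 young UMIs came from 1 barcode each. Both of these barcodes were over the myeloid limit, and both had receptor UMIs. Gata3, the factor of type 2 cells, was present in 4 of the 6 adult and both young Il13-positive members.

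Set against CD8-positive T cells of the same library, the CD8-negative members were higher for some regulatory genes, Tnfrsf4, Ikzf2 and Tnfrsf18 among them, and lower for some cytotoxic genes, such as Nkg7 and Ccl5. In the adult library 105 of 2803 genes were higher (3.75%) and 58 lower (2.07%). In the young library 84 of 2901 were higher (2.9%) and 91 lower (3.14%). Of 2455 genes measured in both, 10 were higher in both libraries (0.407%) and 13 lower in both (0.53%). The rule that made the groups used Cd8a and Cd8b1, which are not counted, and the shared genes are a description of those groups.

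Tnfrsf4 was among these 10, with 1433 CPM in adult CD8-negative and 106 CPM in adult CD8-positive cells (13.5-fold), and 1280 and 93.3 CPM in the young library (13.7-fold). Ikzf2 had 250 and 35.3 CPM in the adult library and 479 and 26.4 CPM in the young one. Maf stood at 193 and 26.5 CPM in adult cells and 304 and 36.5 CPM in young cells. Foxp3, Tnfrsf18, the T cell surface receptor Cd5, and Ecm1, Cmtm6 and Coro2a were also among the 10. Of the regulatory list, 6 of 18 measured genes were higher in the adult library and 7 of 20 in the young one, with none lower. Of these, Tnfrsf4, Ikzf2, Foxp3, Tnfrsf18 and Cd5 kept the call in both libraries without barcodes over the myeloid limit. With a gate of 1 CD3 UMI, Tnfrsf18 turned to log2 ratios of -0.34 (adult) and -0.33 (young), and Cd5 to -0.074 and -0.93.

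On the lower side, Cd160, an Ig family receptor of cytotoxic cells, had 10.4 CPM in adult CD8-negative and 190 CPM in adult CD8-positive cells, and 0 against 134 CPM in the young library, at least 7.64-fold lower. Nkg7 stood at 645 and 2153 CPM in the adult and at 333 and 2315 CPM in the young library. The chemokine Ccl5 stood at 924 and 3009 CPM in adult cells and at 450 and 4438 CPM in young cells. Klrc1, Ms4a4b, Jaml, Ctsw, Cblb, Gar1 and Smap2 followed, and Cd160, Nkg7, Klrc1, Ms4a4b and Smap2 kept the call in both libraries without barcodes over the limit. Of 12 measured cytotoxic genes, 4 were lower in each library and none higher. Gzmb was at 2263 and 3848 CPM in the adult library, a ratio of 0.588 (0.535 to 0.647), and at 1765 and 2209 CPM in the young one, 0.799 (0.701 to 0.908), so it did not reach 2-fold. CD8-positive cells over the limit numbered 3 adult and 11 young.

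**Figure D5:**
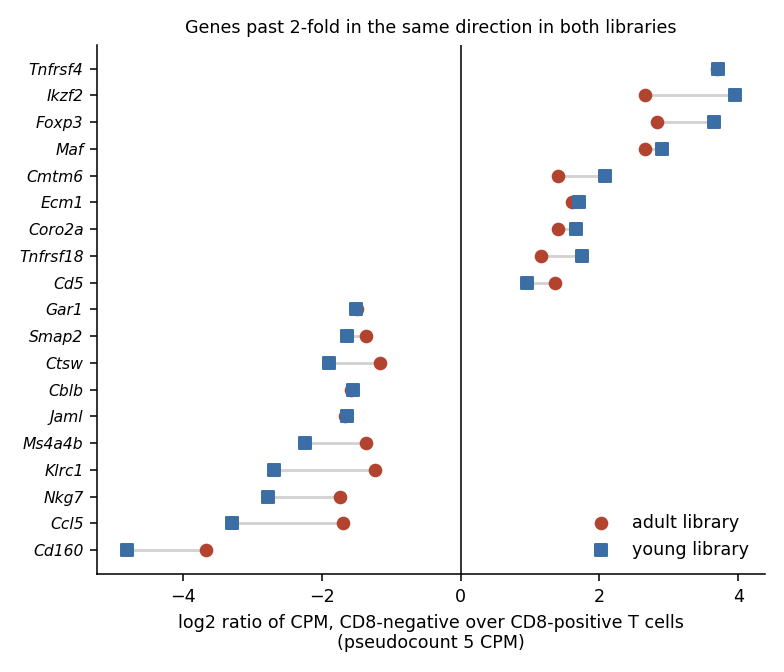
Log2 ratios of CPM (pseudocount 5 CPM), CD8-negative over CD8-positive T cells, for genes called higher and the leading genes called lower in both libraries, with a symbol for each library. Tnfrsf4 gives 3.70 in the adult and 3.71 in the young library, and Cd160 lies lowest in both.

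Between the ages, 83 of 2918 measured genes were higher in adult CD8-negative T cells (2.84%) and 57 lower (1.95%). Without the members over the myeloid limit, which left 43 adult and 14 young barcodes, 51 were higher and 44 lower. The 12 largest on the higher side were Cldnd1, Rnf166, Adgre5, Ctsw, Grk6, Il18rap, Dkkl1, Smim15, Fam102a, Hsd11b1, Serpina3g and Mphosph6. Each had 1 to 5 UMIs in the young sum, so the ratios are loose: Cldnd1, a claudin domain protein, had 83.3 CPM in 23 of 50 adult barcodes and 5.84 CPM from 1 UMI in the young library, 14.2-fold (2.38 to 580). Ctsw had 164 CPM in adult and 29.2 CPM in young members, 5.61-fold (2.28 to 17.9). Adgre5, the adhesion receptor CD97, had 112 and 17.5 CPM, and Il18rap, a chain of the interleukin 18 receptor, 70.2 and 11.7 CPM. Cldnd1, Ctsw and the serpin Serpina3g kept the call without the members over the limit. After thinning to 2000 UMIs, Serpina3g (2 adult and 1 young UMI) and Mphosph6 (3 and 2 UMIs) turned to log2 ratios of -0.30 and -0.70.

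On the lower side stood Oasl2, Scamp2, Myo1f, Ncoa3, Cd27, Nlrp3, Morf4l2, Psen2, Itgav, Coq2, Mef2a and Noct. Cd27, a costimulatory receptor of the TNF receptor family, had 52.0 CPM in 14 of 50 adult members and 187 CPM in 12 of 20 young members, a ratio of 0.278 (0.151 to 0.502), and 62.9 against 407 CPM without the members over the limit. Psen2, a presenilin, had 46.8 and 158 CPM and also kept its call. Nlrp3, an inflammasome sensor known from myeloid cells, had 36.4 and 134 CPM and did not. Cd27 was not called between the ages within Foxp3-positive or within Foxp3-negative members. It was found in 8 of 14 adult and 7 of 9 young Foxp3-positive members. The part of the unlike Foxp3-positive shares in its difference was not tested. Myeloid RNA made up 6725 CPM of the adult and 7257 CPM of the young member sum, and its part in these differences was not tested. Nor was the part of CD8-positive cells whose Cd8a and Cd8b1 RNA was not captured.

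Ifng, given for its role and not called, had 90 UMIs in 16 adult members (234 CPM) and 2 UMIs in 1 young member (11.7 CPM), a ratio with an interval of 5.39 to 168, with 40 of the 90 in 1 barcode. In CD8-positive T cells of the same libraries it stood at 613 CPM in the adult and 793 CPM in the young sum. Its share in myeloid barcodes was 0.335% in the adult and 0.361% in the young library. Beside the 2.84% of all genes called higher, the other lists gave these counts: of 8 measured type 1 helper genes 1 was higher (Il18rap), of 11 cytotoxic genes 2 (Klrk1 and Ctsw), of 17 receptor and signalling genes 2 (Trbc2 and Cd6), and of 18 residency and adhesion genes 2 (Rgs16 and Cd69). Without the members over the limit the counts were 0 of 9, 2 of 11, 0 of 17 and 1 of 19 (Itgb2). The 2.84% is for all members, so these last counts have no share over all genes beside them. Of 21 regulatory genes none was higher and 1 was lower, Klrg1 (65.0 against 134 CPM), with a median log2 ratio of -0.38 beside -0.05 over all genes. Without the members over the limit Foxp3 and Ikzf2 were lower and Areg higher.

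Within Foxp3-positive members alone, 8 of 4012 genes were higher in adult cells (0.199%) and 13 lower (0.324%), and none of 26 measured regulatory genes was called. Ctla4 was at 2049 CPM in adult and 2958 CPM in young cells, Icos at 847 and 1544 CPM, Tnfrsf4 at 3339 and 4188 CPM, and Gzmb at 8410 and 6335 CPM. Areg, a growth factor of tissue regulatory T cells, had 20 UMIs in 6 of 14 adult and 0 in 9 young barcodes, at least 3.22-fold higher on a floor of 3 UMIs over the group, and was not called because 1 barcode held 6 of the 20.

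Within Foxp3-negative members, 101 of 2932 genes were higher in adult cells (3.44%) and 32 lower (1.09%). Nkg7 had 747 CPM in adult and 181 CPM in young cells, Tnfrsf4 940 and 444 CPM, Tnfrsf18 596 and 218 CPM, Cxcr6 262 and 120 CPM, and Cd4 170 and 60.2 CPM. Cd247, Lck, Trbc2 and Lat were higher among 16 receptor and signalling genes, and 6 of 11 young cells were over the myeloid limit against 7 of 36 adult ones. Without these, 29 adult and 5 young barcodes remained, Tnfrsf4 (1408 against 350 CPM) and Tnfrsf18 (855 against 311 CPM) kept the call, and Nkg7 was at 1026 and 662 CPM, a ratio of 1.55 (0.942 to 2.72). Among the 5 young barcodes, 1 held most of the UMIs (15911), with most of those of Tnfrsf4 (6) and Tnfrsf18 (5). These young values therefore rest mainly on 1 barcode.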

How the data were processed

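Both libraries were deposited as unnormalized UMI counts, which the authors made with Cell Ranger 3.0.2 on mm10, per the submitters' processing notes. Gates were applied to these counts in Python 3.11.15 (numpy 2.4.6, pandas 2.3.3, scipy 1.17.1). UMIs were summed per library and class, with exact Poisson intervals for CPM, Clopper-Pearson intervals for shares, conditional binomial intervals for CPM ratios and log-scale normal intervals for ratios of shares, all at 95%. Log2 ratios used a pseudocount of 5 CPM. No p-value was computed, because each age is 1 library. Named genes were the 12 (ages) or 10 (other comparisons) called genes with the largest log2 ratio in each direction, plus genes of 31 lists. The members and lists were chosen with earlier results of these data known. No doublet caller was run; instead, barcodes with over 0.5% of UMIs from 12 myeloid markers were left out as an alternative, beside other gates, thinning to 2000 UMIs and equal weight per barcode. Gene positions are from GENCODE M21. The summing and calling steps were tested on simulated data, with Poisson counts drawn for every barcode from the members' mean profile. That simulation held no differences between cells and no doublets, so it does not cover genes concentrated in single barcodes. Some genes are not reported here.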

Additional observations from a re-analysis of the deposited data

Results flagged for a closer look

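Il18rap, a chain of the interleukin 18 receptor, was called in opposite directions when CD8-negative T cells were set against CD8-positive ones. In the adult library it was higher, with a log2 ratio of 1.26 (70.2 CPM from 27 UMIs in 11 CD8-negative barcodes, 26.5 CPM from 6 UMIs in 5 CD8-positive barcodes). In the young library it was lower, with a log2 ratio of -1.79 (11.7 CPM from 2 UMIs in 2 CD8-negative barcodes, 52.7 CPM from 26 UMIs in 15 CD8-positive barcodes). The difference between the libraries was not tested.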

How the results depend on the processing

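The main counts were 83 higher and 57 lower genes between the ages, 10 and 13 called in both libraries against CD8-positive cells, and 232 and 212 by Foxp3. The number of genes measured in each other setting is not given here, so the gene counts below are not shares. With at least 3 CD3 UMIs the lower counts were 34 (ages) and 138 (Foxp3). With at least 1 CD3 UMI the members were 2.32% of adult and 1.14% of young barcodes, the Foxp3-positive share 10.4% and 11.1%, and the counts 43 higher (ages), 156 and 66 (both libraries) and 357 and 477 (Foxp3); Tnfrsf18 reversed to -0.34 (adult) and -0.33 (young), and Cd5 to -0.074 and -0.93. Without the Trdc and Il17a condition the adult share was 1.59%, its Foxp3-positive share 15.2%, and Ctsw reversed to 0.33 in the young library. Without barcodes over the myeloid limit the counts were 51 higher (ages), 7 lower (both libraries) and 100 lower (Foxp3); fewer barcodes alone can end a call that needs UMIs in 5. With equal weight per barcode they were 255 and 191 (ages), 47 higher (both libraries) and 333 lower (Foxp3). Thinned, the adult Foxp3-positive share was 14.6% and the counts 40 and 35 (ages), 6 and 4 (both libraries) and 92 and 78 (Foxp3), with Serpina3g at -0.30 and Mphosph6 at -0.70 reversed. With the gate applied after thinning, the share was 16.2% and the counts 21 lower (ages), 5 and 8 (both libraries) and 80 and 70 (Foxp3). The adult over young share ratio stayed between 2.03 and 4.18. Leaving out the member and any CD8-positive T cell with a barcode sequence found in both libraries moved no count by over 1.5 times. That setting and the Foxp3-negative share without barcodes over the myeloid limit were chosen after seeing the data. The cause of these changes was otherwise not tested. No paired analysis was possible because each age is 1 library.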
